A study of Mus musculus with 5 samples.

Results

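Sterol and fatty acid synthesis genes were followed in 5 mouse heart libraries as 34 genes chosen by name, taken from the 49315 genes of each count table by their Ensembl identifiers and GENCODE M21 symbols. All 34 had a row and all 34 passed the filter on low counts, as did 14221 genes in all. They fall into 5 regulators, 15 enzymes of sterol synthesis, 7 genes of fatty acid synthesis and 7 desaturases and elongases. The whole hearts, of mixed cell type and rinsed of blood with PBS, came from mice that had eaten a high-fat, high-sucrose (HFHS) diet (3 libraries) or chow (2 libraries) for 18 weeks. Every mouse in both groups had received 1 intravenous dose of iron dextran and was sampled 48 hours later, so iron is shared by the groups and its own effect was not measured. The sources used here do not give strain, sex or age. Whether each library is a separate mouse is not stated, so p-values reflect the spread between libraries, which may be technical.

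Cholesterol is built from acetyl-CoA through the mevalonate pathway and a long series of reactions that turn squalene and lanosterol into the finished sterol, while saturated fatty acids are built from malonyl-CoA and then lengthened and desaturated. The transcription factors SREBP-1 and SREBP-2, made by Srebf1 and Srebf2, switch on the enzymes of both routes, and INSIG proteins hold them, bound to SCAP, in the endoplasmic reticulum when sterols are plentiful. The heart makes little fat for storage; there malonyl-CoA is best known as the signal that slows the entry of fatty acids into mitochondria.

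Library depth was 14362766 to 17774735 counts. Heart muscle markers were abundant in every library. Scaled by total counts, 10 genes summed to 54471 to 60832 CPM (counts per 1000000 reads) in chow and 62144 to 65217 CPM in HFHS hearts. In edgeR's quasi-likelihood test with Benjamini-Hochberg adjustment over all genes tested, 38.1% of genes passed an adjusted p of 0.05, 19.4% higher and 18.7% lower in HFHS hearts (2756 and 2661 genes). Scaled by total counts alone, the split was 2053 higher and 3429 lower, and the median log2 fold change of all genes was then -0.11. Of the 34 synthesis genes 13 passed, or 38.2%, which is close to that background; 8 were higher and 5 lower, against 5 and 8 when scaled by total counts alone. Without HFHS replicate 1 or without chow replicate 1, 5 were higher. The members' median log2 fold change was 0.05 against -0.01 for all genes tested. All HFHS libraries lay above both chow libraries in 9 of the 34 genes and below them in 8, while among all genes tested the shares were 29.2% above and 29.4% below, 58.5% in all.

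By branch the counts differed. In fatty acid synthesis 4 of 7 genes rose and 1 fell (median log2 fold change 0.33); with offsets for exon length and GC content 2 rose and 2 fell (median 0.03). None of the 7 desaturases and elongases rose and 3 fell (median -0.41). Among the 15 sterol enzymes 3 rose and 1 fell (median 0.14), and among the 5 regulators 1 rose and none fell (median 0.11). The difference between branches was not itself tested, and the counts describe these lists beside the backgrounds of 19.4% and 18.7%.

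**Figure D1:**
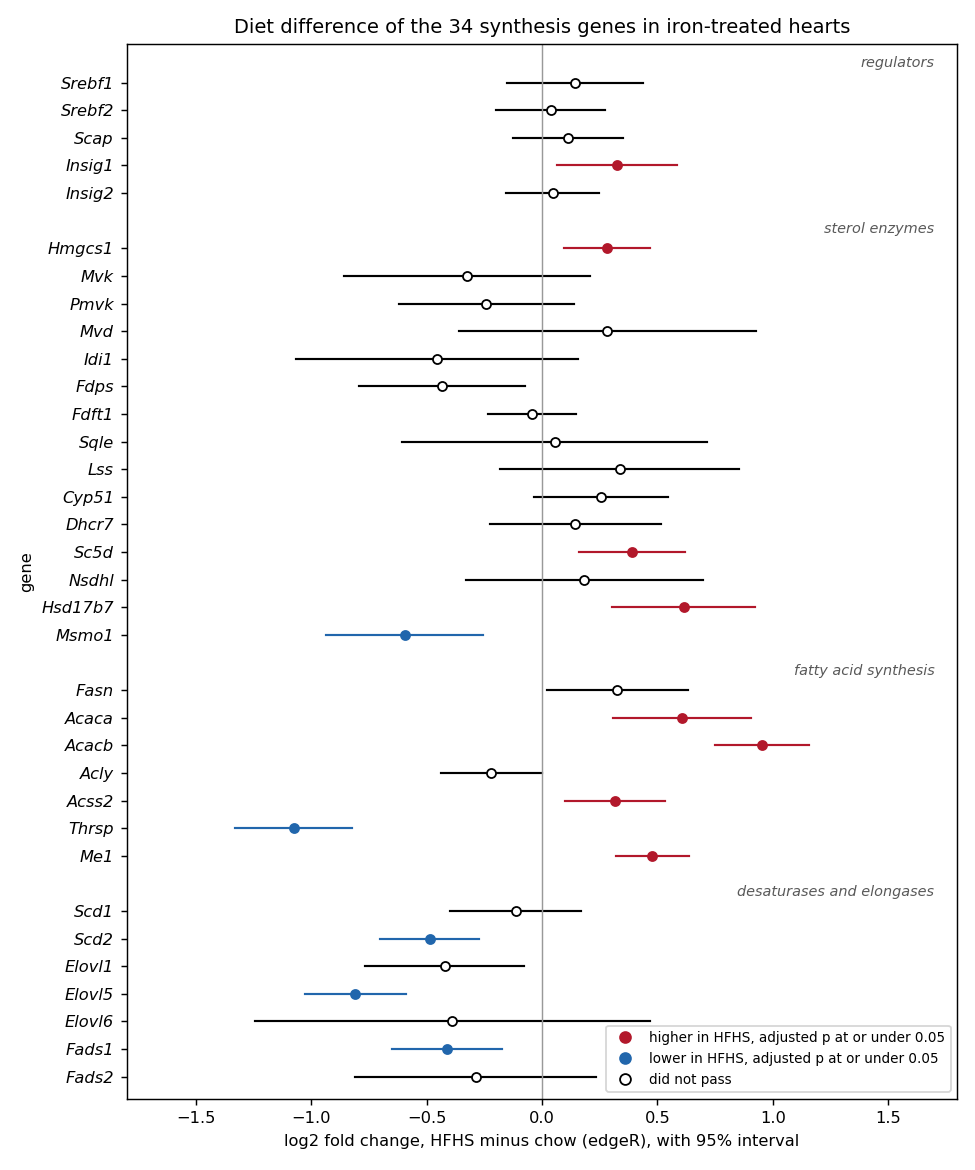
Log2 fold change of each of the 34 genes (HFHS minus chow, edgeR; points) with its approximate 95% interval (lines), by branch; filled red points passed an adjusted p of 0.05 as higher in HFHS, filled blue points as lower, and open points did not pass. All 7 desaturases and elongases lie below 0, and the widest intervals belong to genes with few counts such as Elovl6 and Sqle.

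Promoter sequences were compared first. The members were chosen as genes of routes that SREBP switches on, so motifs shared by their promoters can follow from that choice. The background is all genes with a promoter, not only the genes tested here. RefSeq promoters (GRCm38.p6; 250 bases before to 50 after each start, both strands searched) were found for 28 of the 34 genes; Fdps, Fdft1, Sqle, Scd1, Scd2 and Fads1 had no entry. The letters CCAAT, the box bound by the factor NF-Y, which is known to act beside SREBP, were in a promoter of 24 of the 28 genes (85.7%), against 41.1% of 27025 genes with a promoter. All 12 sterol enzymes with an entry held it, as did 4 of 5 regulators, 6 of 7 fatty acid synthesis genes and 2 of 4 desaturases and elongases. The E-box CACGTG was in 6 of the 28 genes (21.4%), against 8.09% of all genes. The sterol regulatory element, searched as TCACNCCA, was in 3 of the 28 (10.7%), against 4.97% of all genes. A sterol element followed by AT also holds a CCAAT box, so these motifs can overlap. A match is a description of letters and not a bound site, and the 28 genes had 38 promoters among them, so some genes had more chances of a match.

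The 3 genes with the sterol element are shown because they went 3 ways in the counts: Hmgcs1 was higher in HFHS hearts, Msmo1 was lower and Srebf2 did not pass. In each line below, capitals mark the sterol element and any CCAAT box (ATTGG on the other strand). The stretches are only part of each promoter. Whole promoters of 300 bases held 4 CCAAT boxes in Hmgcs1, 3 in Msmo1 and 1 in Srebf2. The stretches are Hmgcs1 at chr13:119690179-119690256 on the plus strand, Srebf2 at chr15:82147072-82147149 on the plus strand, and Msmo1 at chr8:64733737-64733766 on the minus strand. The Msmo1 site starts 177 bases before the RefSeq start but lies inside an exon of the gene model in the count tables, so it is shown with a shorter flank.
Hmgcs1: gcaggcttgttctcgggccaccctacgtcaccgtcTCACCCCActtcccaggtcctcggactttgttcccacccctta
Srebf2: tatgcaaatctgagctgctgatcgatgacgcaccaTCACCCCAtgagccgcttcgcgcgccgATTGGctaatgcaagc
Msmo1: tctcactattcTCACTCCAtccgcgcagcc

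Upstream stretches of 4 genes that passed, 3 higher (Hsd17b7, Sc5d, Acacb) and 1 lower (Elovl5), each hold at least 1 CCAAT box, in capitals, and no sterol element. The 4 genes were picked for display, and the box is in 24 of the 28 genes with a promoter. Whether it goes with the direction of change was not tested. Each stretch has 180 bases and holds no exon base of its gene in the annotation used: Hsd17b7 at chr1:169969242-169969421 (minus strand), Sc5d at chr9:42264301-42264480 (minus strand), Acacb at chr5:114165329-114165508 (plus strand, before an internal RefSeq start and so inside the gene of the count tables, which starts at 114146535) and Elovl5 at chr9:77917184-77917363 (plus strand).
Hsd17b7: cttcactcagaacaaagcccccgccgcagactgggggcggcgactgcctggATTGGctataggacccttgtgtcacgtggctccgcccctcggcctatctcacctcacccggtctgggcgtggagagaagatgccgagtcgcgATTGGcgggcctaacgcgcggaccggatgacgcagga
Sc5d: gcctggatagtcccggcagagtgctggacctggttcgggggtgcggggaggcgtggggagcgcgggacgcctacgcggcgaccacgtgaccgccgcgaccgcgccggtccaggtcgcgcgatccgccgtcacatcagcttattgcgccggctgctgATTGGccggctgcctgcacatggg
Acacb: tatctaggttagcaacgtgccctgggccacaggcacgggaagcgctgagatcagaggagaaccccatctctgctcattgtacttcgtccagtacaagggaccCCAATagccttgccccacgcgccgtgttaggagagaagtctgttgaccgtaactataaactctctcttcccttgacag
Elovl5: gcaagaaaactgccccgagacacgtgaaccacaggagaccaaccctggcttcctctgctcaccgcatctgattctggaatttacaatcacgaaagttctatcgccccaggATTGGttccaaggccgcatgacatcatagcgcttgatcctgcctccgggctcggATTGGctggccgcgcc

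Among the regulators, 1 of 5 passed, and that call was weak. Values of single genes below are CPM on TMM-adjusted library sizes, listed in replicate order. Insig1, whose protein retains the SCAP-SREBP complex and whose gene is itself a classic SREBP target, was at 20.4, 19.8 and 16.2 CPM in HFHS hearts and at 15.1 and 14.9 CPM in chow hearts. All HFHS libraries were above both chow libraries, and HFHS replicate 3 lay nearest to them. The log2 fold change was 0.33 (SE 0.121), with an edgeR adjusted p of 0.0472. It did not pass without HFHS replicate 1 (0.156), HFHS replicate 2 (0.146), chow replicate 1 (0.116) or chow replicate 2 (0.128), and its adjusted p over all alternatives ranged from 0.00915 to 0.265.

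The transcription factor genes showed no such separation. Srebf1 was at 15.1, 15.9 and 12.2 CPM in HFHS and 14.0 and 12.1 CPM in chow hearts, and its groups overlapped. Its log2 fold change was 0.14, with a 95% interval of -0.15 to 0.44. The counts do not separate the gene's alternative first exons, so the isoforms of SREBP-1 were not measured apart. Srebf2 was at 16.6, 16.4 and 18.9 CPM in HFHS and 17.1 and 16.7 CPM in chow hearts, with an interval of -0.20 to 0.27. Scap, the sterol-sensing escort of the factors, was at 16.4, 19.2 and 17.4 CPM against 16.8 and 15.8 CPM, and its interval was -0.13 to 0.35.

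Insig2, the second retention protein, was the most abundant regulator per kilobase of exon, at 14.2 ± 1.19 CPM per kilobase in HFHS (SD, n = 3) and 13.8 ± 1.17 in chow hearts (SD, n = 2). Its groups overlapped, with an interval of -0.15 to 0.25 for the log2 fold change. The ratio of Insig2 to Insig1, both per kilobase and taken within each library, was 2.21, 2.36 and 2.45 in HFHS and 2.98 and 2.68 in chow hearts. Insig2 exceeded Insig1 in every library, by a smaller ratio in all HFHS libraries than in either chow library. With 3 libraries against 2 no two-sided exact permutation test of a single ratio can go below 0.2, so ratios are given without a test.

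In the mevalonate steps, the first enzyme rose and the later ones did not pass. Hmgcs1 (ENSMUSG00000093930, chromosome 13 from 119690462 to 119708086, GRCm38), which joins acetyl-CoA and acetoacetyl-CoA to HMG-CoA, was at 40.4, 37.6 and 39.7 CPM in HFHS and 31.6 and 32.9 CPM in chow hearts. The groups did not overlap. Its log2 fold change was 0.28 (SE 0.0868), a 1.22-fold rise, with an edgeR adjusted p of 0.0192. The call was lost without HFHS replicate 1 (0.065) and without chow replicate 1 (0.0938), and over the alternatives the adjusted p ranged from 0.00252 to 0.102.

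Low counts set wide limits on the next enzymes. Mevalonate kinase Mvk had 34 to 70 counts per library and a 95% interval of -0.86 to 0.21 for the log2 fold change. Phosphomevalonate kinase Pmvk had 81 to 133 counts and an interval of -0.62 to 0.14, and the decarboxylase Mvd had 27 to 59 counts and an interval of -0.36 to 0.93. Idi1, the isomerase that makes the reactive isoprene unit, was at 1.499, 2.08 and 1.96 CPM in HFHS and 2.33 and 2.72 CPM in chow hearts. All its HFHS libraries were below both chow libraries, but with 24 to 49 counts the adjusted p was 0.231.

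Fdps, which makes the farnesyl diphosphate from which sterols, prenyl groups and the ubiquinone tail all derive, was at 5.995, 5.46 and 5.34 CPM in HFHS and 6.93 and 8.22 CPM in chow hearts. Its groups did not overlap, and the log2 fold change of -0.43 (SE 0.168) had an adjusted p of 0.0551. Leaving out chow replicate 1 brought it to 0.049, and its adjusted p over the alternatives ranged from 0.0226 to 0.427. Fdft1, squalene synthase and the first step committed to sterols, was at 35.2, 37.0 and 32.9 CPM against 35.8 and 36.4 CPM. Its interval of -0.23 to 0.15 was the narrowest among sterol enzymes apart from that of Hmgcs1. However, 26.8% of its exon bases overlap exons of Ctsb on the opposite strand, and the strand setting of the counting is not given, so this value is uncertain. In the same way 9.12% of the exon bases of Acss2 overlap genes on the other strand, among them Gss and Ggt7. For Scap 13.2% overlap 5830462I19Rik on the other strand, which had 11 counts in all libraries together. For Fdps 26.7% overlap Gm43738 on the same strand, which had 0 counts. How reads in such shared bases were counted is not known, so the Fdps value carries this limit too.

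The steps from squalene to cholesterol held both directions. Hsd17b7 (ENSMUSG00000026675, chromosome 1 from 169949535 to 169969241), the 3-keto-sterol reductase of the demethylation at carbon 4, was at 16.7, 16.7 and 12.6 CPM in HFHS and 10.6 and 9.50 CPM in chow hearts. Its log2 fold change was 0.61 (SE 0.144), with an edgeR adjusted p of 0.00398, and it was the largest rise among sterol enzymes. Sc5d, which puts the double bond into the B ring, was at 25.2, 23.2 and 21.3 CPM in HFHS and 17.5 and 17.9 CPM in chow hearts. Its rise was 1.31-fold (log2 fold change 0.39, SE 0.107; adjusted p 0.0105). In both genes every HFHS library was above every chow library.

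Msmo1 (ENSMUSG00000031604, chromosome 8 from 64718139 to 64733792), the oxidase that starts that same demethylation, went the other way. It was at 6.06, 6.39 and 5.20 CPM in HFHS and 8.72 and 9.05 CPM in chow hearts, so all HFHS libraries were lower. Its log2 fold change was -0.59 (SE 0.159), 1.51-fold lower, with an adjusted p of 0.00886. The ratio of Hsd17b7 to Msmo1 per kilobase was 3.31, 3.15 and 2.92 in HFHS and 1.46 and 1.26 in chow hearts. The ratio of Msmo1 to Sc5d was 0.190, 0.218 and 0.194 against 0.394 and 0.400. Leaving out any 1 library changed the call of neither Hsd17b7, Sc5d nor Msmo1. Sc5d stayed only just under the threshold without HFHS replicate 1 (edgeR adjusted p 0.0493). Without chow replicate 1 its log2 fold change was 0.375. With HFHS replicate 2 and chow replicate 2 both left out, the edgeR adjusted p was 0.0802 for Hsd17b7, 0.0719 for Sc5d and 0.051 for Msmo1.

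The remaining sterol enzymes did not pass. Sqle, squalene epoxidase and a rate-limiting step, was at 3.37, 1.72 and 2.37 CPM against 2.71 and 2.11 CPM, and its interval of -0.61 to 0.72 allows a change in either direction. Lss, which closes the sterol rings, had an interval of -0.18 to 0.86, and the lanosterol demethylase gene Cyp51 one of -0.04 to 0.55. Nsdhl, the dehydrogenase that acts between Msmo1 and Hsd17b7, was at 6.12, 3.52 and 5.34 CPM in HFHS and 3.90 and 4.94 CPM in chow hearts. Its groups overlapped, with an interval of -0.33 to 0.70. Dhcr7, the last reductase, was at 6.18, 6.53 and 6.83 CPM against 6.50 and 5.28 CPM, with an interval of -0.23 to 0.52.

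Per kilobase of exon the sterol enzymes spanned a wide range of levels. Fdft1 and Hmgcs1 were the most abundant in chow hearts, at 12.6 ± 0.135 and 9.98 ± 0.301 CPM per kilobase (SD, n = 2). Sqle and Lss were the least abundant, at 0.434 ± 0.076 and 0.315 ± 0.0129. In HFHS hearts the same pairs stood at the ends, with Fdft1 at 12.3 ± 0.712, Hmgcs1 at 12.1 ± 0.448, Sqle at 0.448 ± 0.15 and Lss at 0.397 ± 0.0957 (SD, n = 3). Within each of these pairs the HFHS levels differed by less than their spread, and Idi1, next above Sqle at 0.527 ± 0.0877, did not differ from it beyond the spread either. Exon length here is the total of all annotated exons, 10787 bases for Lss, and which exons were used was not measured.

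**Figure D2:**
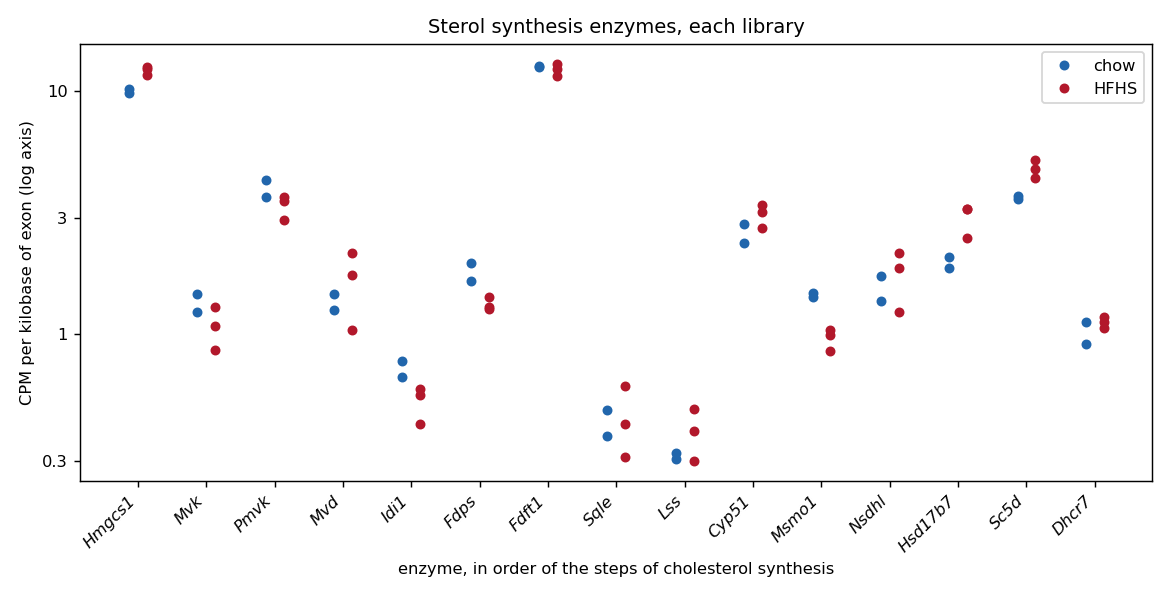
Level of the 15 sterol enzymes in each library (points; chow blue, HFHS red) in CPM per kilobase of exon on a log axis, ordered along the pathway. Hmgcs1, Hsd17b7 and Sc5d are higher in all HFHS libraries and Msmo1, Idi1 and Fdps lower in all, while the span between genes far exceeds any diet difference.

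In fatty acid synthesis, Acacb, Acaca, Me1 and Acss2 rose and Thrsp fell, while Fasn and Acly did not pass. Acacb (ENSMUSG00000042010, chromosome 5 from 114146535 to 114250761), the carboxylase bound to the outer face of mitochondria, was at 320.1, 354.2 and 323.4 CPM in HFHS and 152.2 and 191.3 CPM in chow hearts. Every HFHS library was well above both chow libraries. The log2 fold change was 0.95 (SE 0.0944), with an edgeR adjusted p of 3.83e-06. Acaca, the cytosolic carboxylase that supplies fatty acid synthase, was at 10.7, 11.3 and 11.9 CPM in HFHS and 7.04 and 7.83 CPM in chow hearts. Its rise was 1.52-fold (log2 fold change 0.61, SE 0.139; adjusted p 0.00344), and the groups did not overlap. With the offsets for length and GC content its call was lost (log2 fold change 0.19, adjusted p 0.316).

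The mitochondrial form was far the more abundant of the pair. Acacb exceeded Acaca per kilobase by 52.8, 55.4 and 48.2 times in HFHS libraries and by 38.3 and 43.3 times in chow libraries. The ratio was higher in all HFHS libraries. Reads of these paralogs could be shared where their sequence is alike, since the handling of reads with several matches is not stated.

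Me1, the cytosolic malic enzyme that makes NADPH, was at 181.3, 172.2 and 171.6 CPM in HFHS and 121.0 and 130.3 CPM in chow hearts, the highest level per kilobase among the 34 genes (45.5 ± 1.41 CPM per kilobase in HFHS; SD, n = 3). Its rise was 1.39-fold (log2 fold change 0.48, SE 0.0734; adjusted p 0.000165). Acss2, which makes acetyl-CoA from acetate, was at 32.1, 34.7 and 31.7 CPM against 24.2 and 28.6 CPM. The groups did not overlap, and the log2 fold change of 0.31 (SE 0.101) had an adjusted p of 0.0243. Its call was lost without HFHS replicate 1 (0.0504), HFHS replicate 2 (0.1) or chow replicate 1 (0.22), and the adjusted p over the alternatives ranged from 0.00919 to 0.845, the highest with the length and GC offsets.

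Acly, which makes cytosolic acetyl-CoA from citrate, did not follow Acss2. It was at 36.7, 40.1 and 33.5 CPM in HFHS and 46.3 and 39.3 CPM in chow hearts, and its groups overlapped. The log2 fold change of -0.22 (SE 0.102) did not pass (adjusted p 0.104). Leaving out chow replicate 2 gave 0.03, and the range over the alternatives was 0.0245 to 0.585. The ratio of Acss2 to Acly per kilobase was 0.454, 0.450 and 0.492 in HFHS and 0.271 and 0.378 in chow hearts, higher in all HFHS libraries. Fasn, fatty acid synthase itself, was at 10.8, 12.1 and 9.87 CPM in HFHS and 8.23 and 9.17 CPM in chow hearts. All HFHS libraries were above both chow libraries, but the adjusted p of 0.0877 did not pass (log2 fold change 0.33, SE 0.143).

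Thrsp (ENSMUSG00000035686, chromosome 7 from 97412938 to 97417730), a nuclear and cytosolic protein known for its induction by thyroid hormone and carbohydrate in lipogenic tissue, fell. It was at 14.1, 15.4 and 17.9 CPM in HFHS and 30.5 and 36.2 CPM in chow hearts. The highest HFHS library was far below the lowest chow library. The log2 fold change was -1.08 (SE 0.117), with an adjusted p of 9.03e-06. Its paralog Mid1ip1, which promotes the assembly of the carboxylases into active filaments, was at 80.6, 76.4 and 82.9 CPM in HFHS and 66.5 and 60.55 CPM in chow hearts and rose.

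Length of the genes moved with these results. Over all genes tested, the log2 fold change rose with exon length (rank correlation 0.43 across 14221 genes, which are not independent replicates). Acaca, Fasn and Acss2 are the longest members but for Lss, with 17074, 10947 and 10163 bases of exon. With per-library offsets for exon length and GC content, 2 fatty acid synthesis genes rose (Acacb and Me1) and 2 fell (Thrsp and Acly), where 30.8% of all genes passed. The log2 fold change of Acacb was then 0.69, that of Me1 0.52 and that of Thrsp -0.87, all past the threshold. Beside Acaca, Acss2 moved to 0.03 (adjusted p 0.845) and Fasn to 0.02 (0.936). Acly moved to -0.32 and passed, with 0.025. All 3 desaturases and elongases that fell still passed, and so did Hmgcs1, Sc5d, Hsd17b7, Msmo1 and Insig1.

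**Figure D3:**
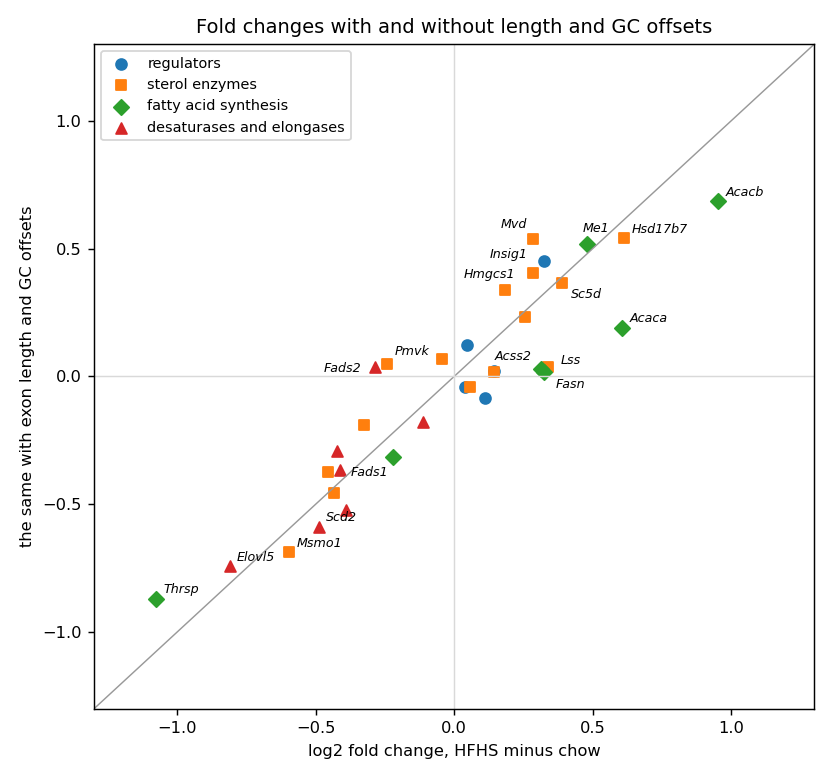
Log2 fold change of each of the 34 genes (HFHS minus chow) without offsets on the horizontal axis and with exon length and GC offsets on the vertical axis; the marker shape and colour give the branch and the grey diagonal marks equality. Acaca, Acss2, Fasn and Lss drop toward 0, while Elovl5, Scd2, Msmo1, Me1 and Hsd17b7 stay near the diagonal.

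Desaturases and elongases were lower or did not pass. Elovl5 (ENSMUSG00000032349, chromosome 9 from 77917364 to 77984519), the elongase of polyunsaturated fatty acids, was at 26.5, 25.1 and 21.6 CPM in HFHS and 40.6 and 44.9 CPM in chow hearts. The groups stood well apart. Its log2 fold change was -0.81 (SE 0.102), 1.75-fold lower, with an edgeR adjusted p of 3.25e-05. Fads1, the desaturase that forms arachidonic acid, was at 17.9, 18.8 and 15.8 CPM in HFHS and 21.8 and 24.7 CPM in chow hearts. It fell (log2 fold change -0.41, SE 0.112; adjusted p 0.00968), but not without chow replicate 2, where the adjusted p was 0.0876 (0.00259 to 0.0964 over the alternatives).

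Fads2, the partner desaturase that opens the polyunsaturated route, was much lower in count, at 33 to 67 counts per library. It was at 3.06, 2.37 and 2.91 CPM in HFHS and 3.09 and 3.72 CPM in chow hearts. The groups did not overlap, but the adjusted p was 0.382. The ratio of Fads1 to Fads2 per kilobase overlapped between the groups, at 2.36 to 3.46 in HFHS and 2.90 to 3.08 in chow libraries.

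The stearoyl-CoA desaturases, which make monounsaturated fatty acids, are given side by side. Scd2 was at 17.9, 16.1 and 16.7 CPM in HFHS and 23.7 and 23.7 CPM in chow hearts, all HFHS libraries lower. Its log2 fold change was -0.49 (SE 0.101), with an adjusted p of 0.00168. Scd1 was at 15.2, 19.7 and 16.6 CPM in HFHS and 16.5 and 20.5 CPM in chow hearts, and its groups overlapped (95% interval -0.40 to 0.17). The ratio of Scd1 to Scd2 per kilobase was 0.958, 1.38 and 1.12 in HFHS and 0.787 and 0.974 in chow hearts, which overlapped, so the data do not separate the response of these paralogs beyond their spread. Within each group Scd1 was highest in replicate 2. The albumin gene Alb, a liver cell marker, was highest in the same libraries, with 9.76 CPM in HFHS replicate 2 and 3.56 CPM in chow replicate 2, where the others had 0 to 1.249 CPM; its part in the Scd1 values was not tested.

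Elovl1, which lengthens saturated and monounsaturated very long chains, was at 9.81, 10.6 and 14.1 CPM in HFHS and 17.3 and 13.4 CPM in chow hearts. HFHS replicate 3 lay between the chow libraries, and the log2 fold change of -0.42 (SE 0.16) had an adjusted p of 0.0516. Without HFHS replicate 3 the adjusted p was 0.0102 and without chow replicate 2 it was 0.0145, within a range of 0.00167 to 0.391 over the alternatives. Elovl6, which lengthens the product of fatty acid synthase, had 9 to 27 counts per library, and its interval of -1.25 to 0.47 is too wide to show a change of moderate size.

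**Figure D4:**
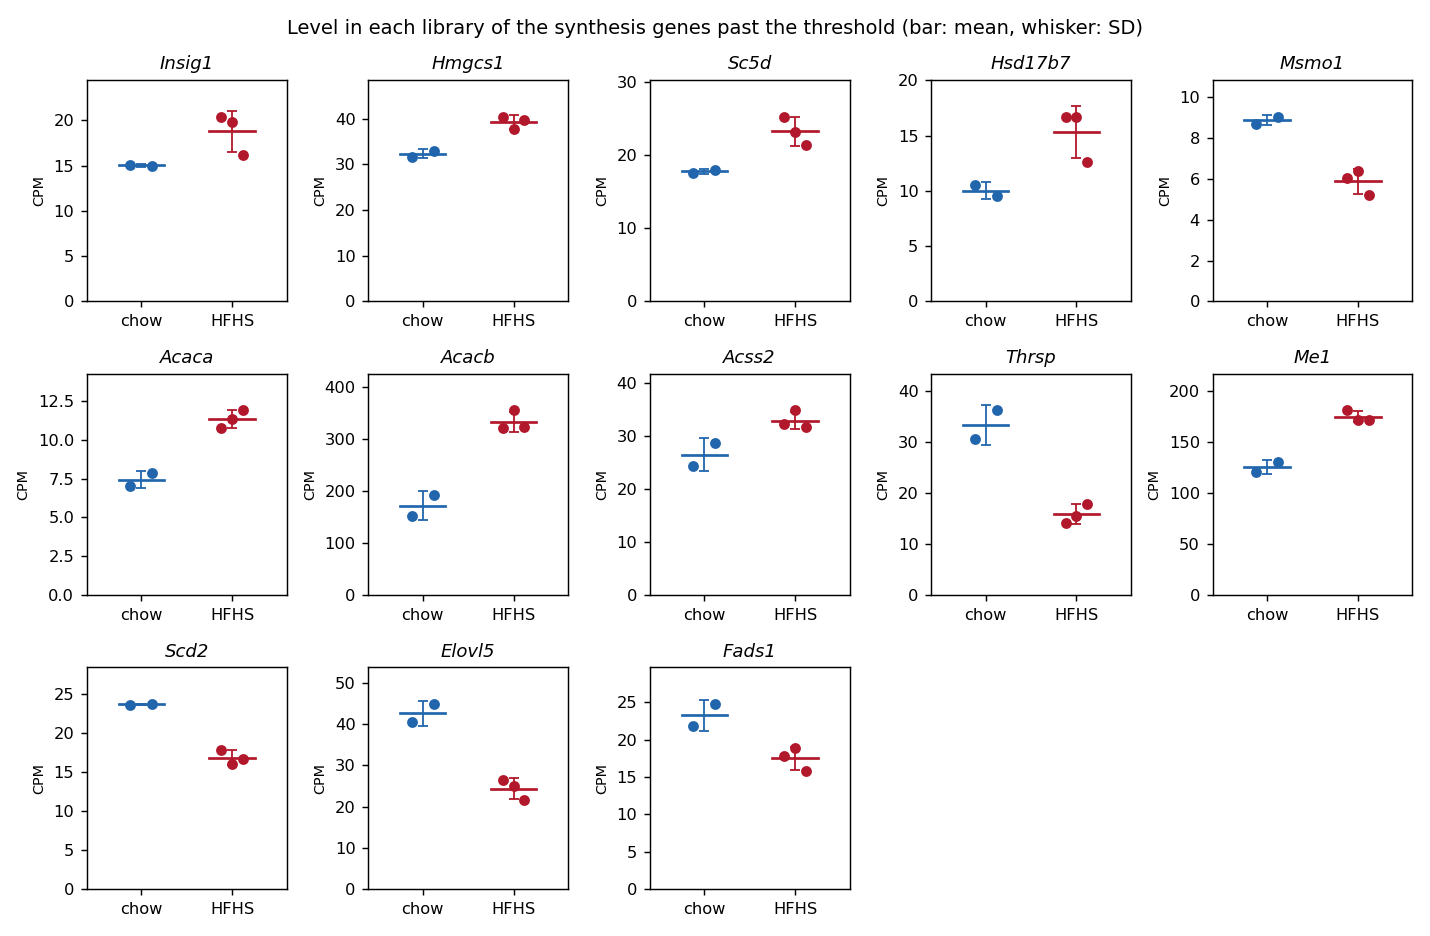
Level in CPM in each library (points) of the 13 synthesis genes past the threshold, chow in blue and HFHS in red, with the mean (bar) and SD (whisker) of each group; axes start at 0. In all 13 genes every HFHS point lies on 1 side of both chow points. The genes were picked by their call on these same libraries, so this separation adds no evidence. Among all genes tested 58.5% had no overlap. The mean of Acacb is 332.5 CPM in HFHS against 171.7 CPM in chow hearts.

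Markers of other cell types moved in the same libraries. Their summed levels below are scaled by total counts, without the TMM factors. Those factors were 0.969 to 0.983 in HFHS and 1.04 in chow libraries. On the TMM scale the HFHS sums would thus be higher and the chow sums lower, with smaller gaps where HFHS is lower. Of 10 macrophage markers all 10 fell, and their summed level was 180 to 211 CPM in HFHS and 469 to 543 CPM in chow hearts. All 8 fibroblast markers fell (742 to 778 CPM against 1202 to 1284 CPM), and 6 of 8 endothelial markers fell (869 to 895 CPM against 1149 to 1177 CPM). Of 8 markers of pericytes and smooth muscle 3 fell and 1 rose (1261 to 1324 CPM against 1443 to 1444 CPM), and 1 of 5 tested Schwann cell markers fell. Among heart muscle markers 5 of 10 rose and 3 fell. In bulk tissue fewer cells of a type and less RNA per cell cannot be told apart, and the part of these cells in the lower Scd2, Elovl5, Fads1, Msmo1 and Thrsp was not tested. Fat cells, in which Thrsp, Fasn, Acly and Scd1 are abundant, were near absent by their defining markers: Adipoq, Plin1, Cidec, Lep, Cfd and Retn had 0 to 4 counts in every library. Of these, Plin1 had 3, 3 and 4 counts in HFHS and 0 in both chow libraries, while the others overlapped. Pparg and Fabp4, which other heart cells also express, both fell, and 3 tested brown fat markers did not pass. Of those 3, Cidea and Dio2 were above both chow libraries in all HFHS libraries and Kcnk3 overlapped. With length and GC offsets only Cidea passed (log2 fold change 0.55, edgeR adjusted p 0.000677). Red blood cell markers fell (5 of 5; 250 to 524 CPM against 1484 to 1699 CPM), 3 of 4 tested mesothelial markers rose (9.54 to 13.2 CPM against 7.09 to 9.35 CPM, with Msln and Lrrn4 at 0 counts in both chow libraries), 1 tested lymphocyte marker fell and none of 3 tested liver cell markers passed.

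The rest of the pathway was read from 6 further lists, whose counts stand beside 19.4% higher and 18.7% lower over all genes tested and a median of -0.01. Of 10 other genes that process or degrade SREBP and its partners, 2 rose and 2 fell (median log2 fold change 0.09), or 20.0% each way, close to those shares. With length and GC offsets 1 rose and 2 fell (median -0.055). Pgrmc1, a haem-binding membrane protein that interacts with SCAP and INSIG1, was at 17.8 ± 1.13 CPM in HFHS (SD, n = 3) and 32.9 ± 1.53 CPM in chow hearts (SD, n = 2), 1.85-fold lower and without overlap, with an edgeR adjusted p of 1.04e-05. Erlin2, an endoplasmic reticulum protein of the sterol-regulated degradation machinery, rose 1.24-fold (adjusted p 0.0235; 0.148 with length and GC offsets), and Rnf145, a sterol-responsive ubiquitin ligase, was 1.27-fold lower (0.0314).

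Of 7 other sterol synthesis genes with a row, 1 fell and none rose (median -0.28). Lbr, which is both a nuclear envelope receptor and a sterol reductase, was at 21.7, 20.0 and 20.3 CPM in HFHS and 27.0 and 23.2 CPM in chow hearts (adjusted p 0.0483). The sterol isomerase Ebp (adjusted p 0.0532) and the scaffold Erg28 (0.0613) were lower in all HFHS libraries without passing.

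In the isoprenoid branch, which leaves sterol synthesis at farnesyl diphosphate, 3 of 12 genes rose and 3 fell (median 0.13). Dhdds, a subunit of the enzyme that makes dolichol precursors, rose 1.38-fold, from 28.2 and 24.3 CPM to 33.97, 38.9 and 36.02 CPM (adjusted p 0.00234). Pggt1b, the specific subunit of the prenyltransferase that attaches geranylgeranyl groups, rose 1.83-fold, from 8.45 and 5.50 CPM to 11.6, 11.4 and 15.5 CPM (0.00244). Fnta, the subunit that the same enzyme shares with farnesyltransferase, fell by 0.32 on the log2 scale (0.00418). Subunits of the same prenyltransferase thus went in opposite directions, although with length and GC offsets Fnta did not pass (0.0792) and the list had 4 genes higher and none lower.

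Of 17 genes of sterol uptake, efflux, storage and LXR control, 5 rose and 4 fell (median -0.08). With length and GC offsets 3 rose and 3 fell (median -0.24). Vldlr, the lipoprotein receptor abundant in heart, rose 1.55-fold, from 283.0 and 296.6 CPM to 466.1, 440.1 and 444.1 CPM (adjusted p 9.04e-06). Npc2, the lysosomal carrier that hands cholesterol to the membrane, was 1.68-fold lower (1.21e-05). Apoe, a lipoprotein component abundant in macrophages, was 1.89-fold lower (1.69e-05). All 10 macrophage markers fell in the same hearts, but the part of these or other cells in the lower Apoe was not tested.

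Of 16 tested genes among 17 others of fatty acid synthesis and malonyl-CoA control, 5 rose and 1 fell (median 0.11). Of 5 listed subunits of the AMP-activated kinase, which phosphorylates and inhibits both carboxylases, 2 rose, while Prkaa1 (log2 fold change 0.13), Prkab1 (-0.16) and Prkag1 (-0.13) did not pass. Stk11, a kinase that activates it, was the gene that fell (-0.21, adjusted p 0.0425); these 4 were named after their values were seen. Prkab2 rose 1.83-fold, from 50.8 and 47.4 CPM to 92.2, 89.4 and 87.4 CPM (adjusted p 1.72e-06), and Prkaa2 1.76-fold, from 98.0 and 103.3 CPM to 180.9, 169.0 and 181.5 CPM (1.94e-06). Mid1ip1, described beside Thrsp, rose 1.26-fold (0.00473).

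Of 12 tested genes among 17 others of elongation and desaturation, 2 rose and 4 fell (median -0.06). With length and GC offsets 3 rose and 3 fell (median 0.03), so the lean toward lower values was not kept. Cyb5a, the cytochrome that passes electrons to the desaturases, was at 31.5, 33.1 and 34.2 CPM in HFHS and 61.7 and 59.9 CPM in chow hearts, 1.85-fold lower (adjusted p 2.02e-06). Fads3, the third gene of the Fads cluster, rose 1.55-fold, from 38.4 and 35.4 CPM to 52.1, 58.7 and 61.4 CPM (0.000106), opposite in direction to Fads1. Tecrl, a muscle relative of the elongation enzyme trans-enoyl-CoA reductase, rose 1.28-fold (0.00237).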

How the data were processed

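Poly(A)-enriched RNA of whole mouse heart was sequenced in 5 libraries. Per the submitters' processing notes, the tools were STAR 2.5.2b, Trimmomatic 0.36 and, from Subread 1.5.2, featureCounts, with the build GRCm38; strand and multi-mapping settings are not given in the sources used. The authors deposited whole-number counts for each gene, with a separate table for every library. Symbols came from GENCODE M21, which holds 49056 of the 49315 identifiers.

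The 34 members and all lists were chosen with earlier results of these data known. Genes were kept by filterByExpr, scaled by TMM and tested with edgeR 4.0.16 (R 4.3.3) by quasi-likelihood, HFHS minus chow, over 14221 genes with Benjamini-Hochberg adjustment at 0.05. The fit was also run on simulated counts with few changed genes and no length trend. That setting differs from these data, so the run does not vouch for the results here. The SE is the coefficient divided by the root of F. The 95% intervals use edgeR's total degrees of freedom, which are the residual ones plus prior ones drawn from all genes. They are narrower than intervals on the residual degrees of freedom alone. CPM of single genes use TMM-adjusted library sizes, while summed marker levels are scaled by total counts. Scaled by total counts, 3 counts are 0.169 to 0.209 CPM, and such limits cover counting error only. All members were named, and of each pathway list the 3 genes with the smallest p. Promoters are those of RefSeq. Alternatives used DESeq2 1.42.0, limma 3.58.1 (voom), other scalings and filters, a replicate block, offsets on exon length and GC content (mgcv 1.9.3) and leaving out libraries.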

Additional observations from a re-analysis of the deposited data

How the results depend on the processing

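Of the 13 members past the threshold, 5 (Acacb, Thrsp, Me1, Scd2 and Elovl5) kept direction and call in all 16 alternatives, and 3 others (Fdps, Acly and Elovl1) passed in at least 1. At an adjusted p of 0.01, 1729 genes were lower, 4 members were higher, 1 sterol enzyme was higher and 0 regulators. Scaled by total counts alone, 5 members were higher and 8 lower, with 0 regulators higher, 2 sterol enzymes lower and 2 fatty acid synthesis genes lower. Regulators higher were also 0 with DESeq2, with limma-voom and with no low-count filter. With length and GC offsets 2 fatty acid synthesis genes were higher and 2 lower. With HFHS replicate 2 and chow replicate 2 both left out, a choice made after seeing the data that leaves 1 chow library, assumed to vary like the others, 4 members were higher, 0 regulators and 0 sterol enzymes were higher, 0 sterol enzymes were lower and 2 fatty acid synthesis genes were lower. Leaving out each library in turn gave 5 to 8 members higher, 5 to 6 lower, 0 to 1 regulators higher, 2 to 3 sterol enzymes higher, 1 to 2 lower, 3 to 4 fatty acid synthesis genes higher and 1 to 2 lower. Fitted directions changed in 9 members, none of them past the threshold. Log2 fold changes reversed with total counts alone for Srebf2 (-0.057), Insig2 (-0.049) and Sqle (-0.039), with offsets for Srebf2 (-0.041), Scap (-0.086), Pmvk (0.048), Fdft1 (0.068), Sqle (-0.04) and Fads2 (0.038), and with the replicate block for Srebf2 (-0.029). They reversed with both replicates 2 left out for Srebf1 (-0.034) and Insig2 (-0.084). Leaving out each library in turn gave -0.025 (without HFHS replicate 3) to 0.072 for Srebf2, -0.039 (without chow replicate 2; also -0.001 without HFHS replicate 2) to 0.136 for Insig2, -0.083 to 0.003 (without HFHS replicate 3) for Fdft1, -0.232 (without HFHS replicate 1; also -0.111 without chow replicate 2) to 0.256 for Sqle and -0.261 to 0.049 (without chow replicate 2) for Scd1. Apart from fewer libraries or a stricter threshold, the cause was not tested. With the replicate number as a block, 2753 genes were higher and 2579 lower, and 8 members were higher and 6 lower. Same-numbered libraries correlated at 0.035 and 0.026 in their deviations from the group means. With 2 chow libraries the chow deviations mirror each other, so these correlations say little. Whether same-numbered libraries share more than a number was not tested. Counts of 9 to 54 per library limit Elovl6, Idi1 and Sqle.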
